A study of Drosophila melanogaster with 3 samples.

Results

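The 52 genes described here encode translation initiation factors (eIF) and elongation factors (eEF) of the fruit fly. They are every protein-coding gene of the Ensembl annotation whose symbol begins with either prefix (out of 13945), without factors listed under other symbols. The question addressed was where a GFP-tagged Grauzone (grau), a DNA-binding zinc finger protein that is known for activating the cortex gene in oocytes, was found at the starts of these genes. Chromatin immunoprecipitation followed by sequencing (ChIP-seq), which sequences the DNA pulled down with an antibody, was done with an antibody to GFP. All samples formed 1 group of 3 biological replicates of whole embryos aged 0 to 24 hours, males and females pooled, from a transgenic Drosophila melanogaster line that stably carried grau with GFP at its C-terminal end. DNA was selected at 200 to 800 bp. A control experiment is named in the labels, but its list was not analysed here, so no value has a background measured the same way beside it.

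Peak lists were deposited for each replicate, for the pooled data and as a reproducible list, the optimal set by irreproducible discovery rate (IDR). There were 30000 peaks in each replicate list and in the pooled list, 9624 of which made up the reproducible list. Sequencing depth is unknown. A promoter peak is a peak whose point source, its most enriched base, lay within 500 bp of any annotated start of a gene. The signal is the authors' value per peak, on a scale that was not stated, so it is used to rank peaks within a list or after division by the list's median. With peaks from whole embryos, a site bound in more cells and a site bound more in each cell cannot be told apart.

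Initiation begins when eIF2, bound to GTP, brings the initiator tRNA to the small ribosomal subunit, with eIF1, eIF1A, eIF3 and eIF5. The eIF4 factors recognise the mRNA cap and unwind the leader, the ribosome scans to the start codon, and eIF5B joins the large subunit. The elongation factors then deliver each aminoacyl-tRNA (eEF1) and move the ribosome along (eEF2). In the early embryo these proteins translate the mRNAs that the mother stored in the egg, and eIF4EHP, a cap-binding relative of eIF4E, is known as a repressor of such mRNAs in the fly.

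The DNA at 6 of the reproducible promoter peaks is shown because it carries the sequence features described below. The eIF4EHP window held the strongest peak and was the richest in A+T. The eEF1gamma, eIF1 and eIF3a windows held the DNA replication-related element (DRE), the eIF4G2 window held the shorter word CGATA without a DRE, and the eIF2beta window held neither. Each line gives up to 50 bp on either side of the point source, from the RefSeq dm6 genome, 5′ to 3′ on the strand of the gene and trimmed to the stretch around the point source that lies outside annotated exons. Capitals mark TATCGATA, the DRE, and CGATA, read on either strand, which lies inside every DRE.
eIF4EHP (chr3R:24109147-24109247, minus strand): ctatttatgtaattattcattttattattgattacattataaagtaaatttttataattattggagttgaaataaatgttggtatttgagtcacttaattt
eEF1gamma (chr3R:29220077-29220171, plus strand): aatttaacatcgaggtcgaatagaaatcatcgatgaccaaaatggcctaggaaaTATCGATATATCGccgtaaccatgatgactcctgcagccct
eIF1 (chr3L:3222995-3223095, plus strand): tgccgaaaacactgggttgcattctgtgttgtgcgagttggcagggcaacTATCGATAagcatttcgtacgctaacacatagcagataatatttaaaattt
eIF3a (chr3R:4433903-4433964, minus strand): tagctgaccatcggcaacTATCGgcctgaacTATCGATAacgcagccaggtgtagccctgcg
eIF4G2 (chr3R:23819238-23819307, minus strand): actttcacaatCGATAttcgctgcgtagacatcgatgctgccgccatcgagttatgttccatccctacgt
eIF2beta (chr3L:12526937-12527037, minus strand): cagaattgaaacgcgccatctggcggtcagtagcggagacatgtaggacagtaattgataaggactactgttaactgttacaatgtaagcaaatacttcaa

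Of the 52 genes, 19 (36.5%, 95% Clopper-Pearson interval 23.6 to 51.0) had a reproducible promoter peak. The background over all protein-coding genes was 32.1%, and the difference from the other protein-coding genes was 4.46 percentage points. In each replicate's own 9624 strongest peaks the share was higher, at 51.9%, 50% and 42.3% in replicates 1, 2 and 3, where the background was 34.2%, 33.3% and 30.7%. The mean over the replicates was 48.1% ± 5.09 (SD, n = 3) for the translation factors and 32.7% ± 1.79 for the other genes, and every replicate showed the same direction, by 15.4 percentage points ± 3.30 on average. The reproducible list thus gave a smaller difference than the strongest peaks of any replicate. No test over genes was made, since genes are not replicates, and the interval covers counting error only.

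In the whole replicate lists, 39, 35 and 27 of the 52 genes had a promoter peak in replicates 1, 2 and 3, where the background was 50.8%, 51.6% and 47.5%. The members' share was 75%, 67.3% and 51.9%. Replicate 3 held the fewest translation factors, and the drop there was larger for them than for genes at large. A promoter peak was present in all 3 lists for 22 genes (42.3%, background 39.5%). It was present in exactly 2 lists for 15 of the 52 (background 10.9%) and in exactly 1 list for 5 of the 52 (background 9.56%). For 10 genes it was in no list (19.2%, against 40.04% of all protein-coding genes). Peaks built from replicates 1 and 2 alone gave a difference from other genes of 16.7 points, those without replicate 1 gave 7.50 and those without replicate 2 gave 7.72, each over 1.5 times the value from the reproducible list.

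**Figure D1:**
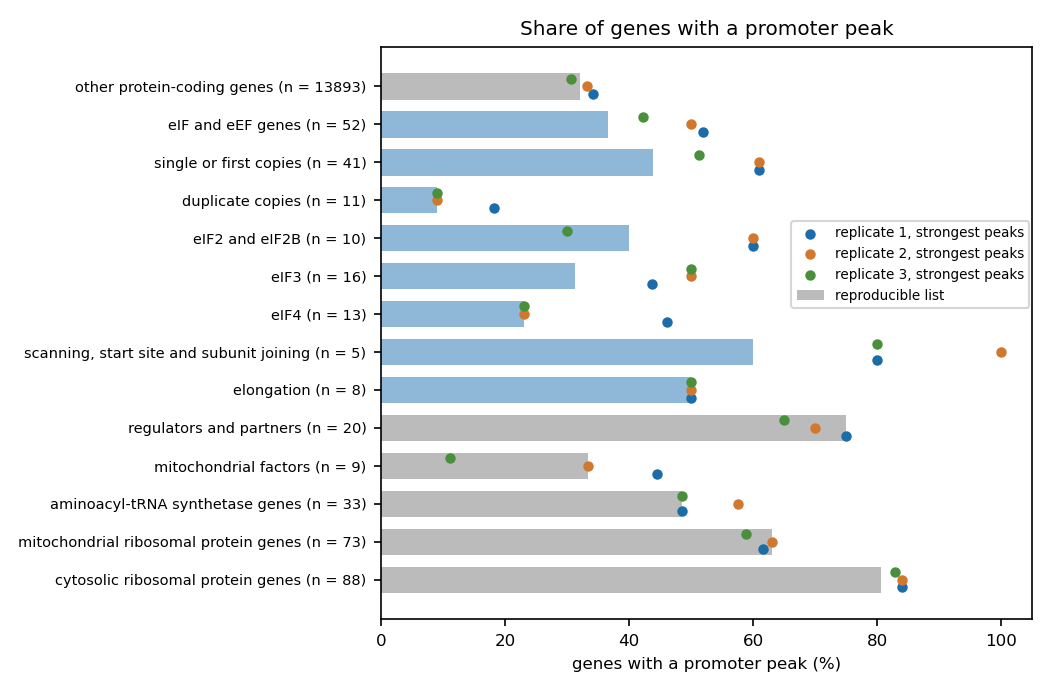
The horizontal axis gives the share of genes in percent with a promoter peak for each gene set, with its number of genes; bars show the reproducible list and points the 9624 strongest peaks of each replicate, blue bars being the translation factors and their subsets. All 3 replicates placed the 52 translation factors (42.3% to 51.9%) above the other protein-coding genes (30.7% to 34.1%) and below the cytosolic ribosomal protein genes.

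Of the 10 genes with an eIF2 symbol, most of them for eIF2 and its exchange factor eIF2B, 4 (40%) had a reproducible promoter peak. The interval of 12.2 to 73.8% includes the background of 32.1%. Among these were eIF2D and eIF2A, which are subunits of neither complex and can place tRNA on the ribosome by other routes. The others were eIF2beta, a subunit of eIF2, and eIF2Bdelta, a subunit of eIF2B. The signal of eIF2D was 259.3 in replicate 1, 230.6 in replicate 2 and 233.0 in replicate 3, with 701.4 in the reproducible list. Divided by the list medians this was 5.66 ± 0.529 (SD, n = 3), the replicates lying close together. The reproducible signals of the others were 562.2 for eIF2A, 384.2 for eIF2beta and 231.8 for eIF2Bdelta. The eIF2Bdelta promoter peak was at 106.5 in replicate 1 and 90.9 in replicate 2 and was absent from the replicate 3 list, whose nearest peak lay 765 bp from a start. It was the lone gene of the 19 that a replicate list lacked. Its point source lay 29 bp from the start of eIF2Bdelta and 29 bp from that of roh, on the other strand.

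The remaining eIF2 and eIF2B genes fell outside the reproducible list. Replicate ranks were 10537 and 9609 for eIF2alpha, the subunit whose phosphorylation halts initiation under stress, in replicates 1 and 2, with no promoter peak in replicate 3. eIF2Bepsilon, the catalytic subunit of the exchange factor, ranked 11745 and 13985 in replicates 1 and 2 and was absent from replicate 3. eIF2Bbeta ranked 13998 in replicate 1 and 13316 in replicate 3 and was absent from replicate 2. These ranks lay at or beyond the edge of the 9624 strongest peaks of a replicate. eIF2Bgamma was stronger, at rank 4052 in replicate 1 and 7674 in replicate 2, but had no promoter peak in replicate 3. eIF2gamma, which binds GTP and the tRNA, had a peak in replicate 1 alone, at rank 6600, and the other replicates' nearest peaks lay 728 and 658 bp from its starts. eIF2Balpha had no promoter peak in any list, and the nearest replicate peak lay 28927 bp away.

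Among the 16 genes of eIF3, the large complex that binds the small subunit, 5 had a reproducible promoter peak. eIF3c, a core subunit, had signals of 302.8, 299.0 and 569.0 in replicates 1, 2 and 3 and 1172 in the reproducible list. Its value in replicate 3 was the high one after scaling, at 14.6 against 5.90 and 7.73. eIF3h had signals of 278.2, 257.9 and 362.0 in replicates 1, 2 and 3 and 894.8 in the reproducible list. That peak lay 283 bp downstream of the nearest eIF3h start and 346 bp from the start of senju, and a further reproducible peak lay 81 bp from an eIF3h start. The other members with a reproducible promoter peak were eIF3m with a signal of 626.7, eIF3a, the scaffold of the complex, with 622.4, and eIF3k with 240.6.

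A further 6 eIF3 genes had a promoter peak in at least 2 replicate lists only. eIF3b, another core subunit, ranked 17314, 13830 and 7641 in replicates 1, 2 and 3, and eIF3l ranked 13617, 16336 and 9614. Both were strongest in replicate 3 and ranked 10956 and 11967 in the pooled list, outside the reproducible part. eIF3f1 ranked 6036 and 7204, eIF3j 8075 and 9304, and eIF3g1 27110 and 20413 in replicates 1 and 2, and none of the 3 had a promoter peak in replicate 3. eIF3d1, whose mammalian counterpart can bind the mRNA cap, ranked 8335 in replicate 2 and 7591 in replicate 3 and was absent from replicate 1. eIF3i had a weak promoter peak in replicate 1 alone, at rank 18542, and eIF3f2 in replicate 3 alone, at rank 22633. eIF3e, eIF3d2 and eIF3g2 had none in any replicate list.

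The strongest peak at any of the 52 genes belonged to the eIF4 group. Of its 13 genes, 3 had a reproducible promoter peak (23.1%, interval 5.04 to 53.8), and in the whole replicate lists the share was 53.8%, 46.2% and 46.2%, near the background given above. eIF4EHP ranked 33 of 9624 in the reproducible list with a signal of 9299, and 56, 43 and 24 in the lists of replicates 1, 2 and 3, with signals of 3123, 2339.8 and 3897. Divided by the list medians these were 60.8, 60.5 and 99.97, or 73.8 ± 22.7 (SD, n = 3). Every replicate ranked it far above the other cap-binding genes, with replicate 3 the highest. The peak (chr3R:24108875-24109462) had its point source 237 bp upstream of the eIF4EHP start, and the start of CG18428, transcribed the other way, lay nearer, at 139 bp. The other eIF4 genes with a reproducible promoter peak were eIF4A, the RNA helicase of initiation, with a signal of 381.9, and eIF4G2, a relative of the scaffold eIF4G1 known from spermatogenesis in the fly, with 332.1. The eIF4G2 point source lay 20 bp from a start that CG33111 shares.

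The main cap-binding gene, eIF4E1, had a promoter peak in all 3 replicate lists at ranks 9605, 15234 and 12912. It ranked 10493 in the pooled list with a signal of 179.2, just outside the reproducible list, in which eIF2Bdelta was the lowest of the 52 genes at rank 8624 and 231.8. eIF4E6 ranked 8752 and 11196 and eIF4H1 8997 and 12174 in replicates 1 and 2, and both were absent from replicate 3. eIF4H2 ranked 18284 in replicate 1 and 29734 in replicate 3. eIF4B, which like eIF4H aids the helicase, had a peak in replicate 3 alone, at rank 13037. No replicate list had a promoter peak at the scaffold gene eIF4G1, on chromosome 4, or at eIF4E3, eIF4E4, eIF4E5 and eIF4E7, copies of the cap-binding protein.

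Of the 5 genes for scanning, start codon choice and subunit joining, 3 had a reproducible promoter peak, with an interval of 14.7 to 94.7% that includes the background of 32.1%. In all 3 replicate lists 4 of the 5 had one, where the background was 39.5%. eIF6, which keeps the large subunit from joining early, had the second highest signal of the 52 genes, 5193 at rank 155 (chr2R:23850155-23850644). Its signals were 1439.8, 1419.8 and 2363 in replicates 1, 2 and 3, or 41.8 ± 16.9 (SD, n = 3) after division by the list medians. Replicate 3 was highest for eIF6, as for eIF4EHP. The eIF6 point source lay 104 bp upstream of its start and 75 bp from that of the non-coding antisense gene asRNA:CR45928. eIF5B, the GTPase that joins the subunits, had signals of 245.5, 228.9 and 610.2 and 1064 in the reproducible list. eIF1, which guards start codon choice, had 376.2, 258.9 and 542.7 and 1171, with the point source 296 bp upstream of its start and 85 bp from that of RpL28, a ribosomal protein gene. A further reproducible peak lay 89 bp from the eIF1 start.

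eIF1A and eIF5 differed from these between lists. eIF1A, the partner of eIF1 in scanning, had signals of 228.1, 110.3 and 216.7 in replicates 1, 2 and 3, at ranks 3431, 5615 and 3727, within the 9624 strongest peaks of every replicate. The pooled list nevertheless had no peak within 500 bp of its start, the nearest lying 942 bp away, so the gene could not enter the reproducible list. Of the translation factors with a promoter peak in all 3 replicate lists, 1 of 22 (4.55%) lacked one in the pooled list, as did 1.58% of the other genes. eIF5, which triggers GTP hydrolysis by eIF2, ranked 23003 and 8559 in replicates 1 and 2 and had no promoter peak in replicate 3 or the pooled list.

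Of the 8 elongation factor genes, 4 (50%) had a reproducible promoter peak, with an interval of 15.7 to 84.3% that includes the background of 32.1%. The same number was found among the strongest peaks of each replicate, where the background was 34.2%, 33.3% and 30.7%. eEF1gamma, the scaffold of the exchange factor complex of eEF1, came next after eIF6 among the 52 genes, with signals of 559.9, 473.1 and 585.7 in replicates 1, 2 and 3 and 1610.0 in the reproducible list. eEF2, the translocase, had signals of 399.8, 339.7 and 253.6 and 950.3 in the reproducible list. eEF5, the hypusine-carrying factor also called eIF5A, had 335.2, 166.6 and 226.3 and 698.3. eEF2 was lowest in replicate 3 and eEF5 in replicate 2, so that no replicate was uniformly high. eEF1alpha1, which carries aminoacyl-tRNA to the ribosome, had a reproducible signal of 652.6, and its copy eEF1alpha2 ranked 11327 and 20922 in replicates 1 and 2 only. eEF1delta ranked 17221 and 29293 in replicates 1 and 2. eEFSec, the factor for selenocysteine, had a peak in replicate 1 alone at rank 11443, and the exchange factor gene eEF1beta had none.

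**Figure D2:**
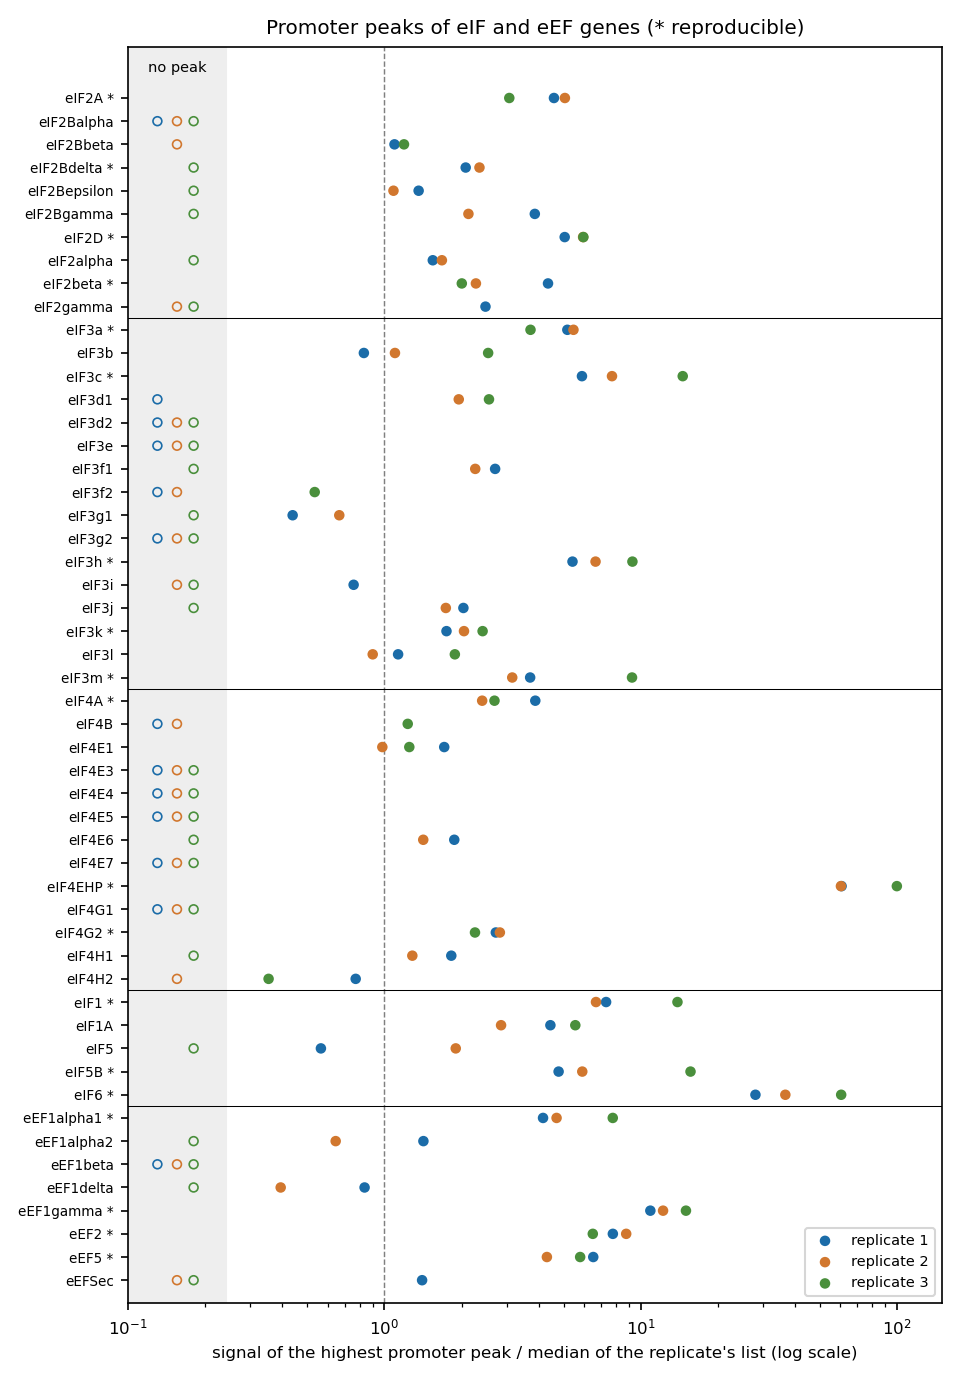
Each row is 1 of the 52 genes, grouped from top to bottom as eIF2 and eIF2B, eIF3, eIF4, scanning to subunit joining, and elongation; the horizontal log axis gives the signal of the highest promoter peak over the median of that replicate's list, filled points are replicates, open points in the grey band have no promoter peak, and asterisks mark the 19 genes in the reproducible list. eIF4EHP (60.5 to 99.97) and eIF6 (28.1 to 60.6) stand apart in every replicate, and most open points belong to replicate 3 or to genes with no peak in any list.

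The gap between replicate and reproducible lists was wider for the translation factors than for other genes, in small counts for which no interval was computed. Of the 37 with a promoter peak in at least 2 replicate lists, 18 (48.6%) were outside the reproducible list, against 36.5% of other genes. Of these 18, 7 had no pooled promoter peak at all, which is 18.9% of the 37 against 8.68% of other genes. They were eIF1A, eIF2Bgamma, eIF3d1, eIF3f1, eIF3j, eIF4E6 and eIF5. The remaining 11 ranked between 10493 and 26631 in the pooled list. For the 22 genes in all 3 lists, the scaled signal in replicate 3 over the mean of replicates 1 and 2 had a median of 1.41 and ranged from 0.605 to 2.93, and the median over 5490 other genes was 1.26.

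Genes listed as duplicate copies of a factor gene had a lower share with promoter peaks than the other members in the reproducible list and in each replicate. The list was drawn up by name, and eIF4EHP, a cap-binding relative of eIF4E, was not on it. Of 11 duplicate copies (eIF3d2, eIF3f2, eIF3g2, eIF4E3 to eIF4E7, eIF4G2, eIF4H2 and eEF1alpha2), only eIF4G2 (9.09%) had a reproducible promoter peak, as did 18 of the 41 other members (43.9%). The difference was 34.8 percentage points, and in the replicates' strongest peaks it was 42.8, 51.9 and 42.1 points, or 45.6 ± 5.45 (SD, n = 3). The sets are small, with 95% Clopper-Pearson intervals of 0.230 to 41.3% and 28.5 to 60.3%. Both include the background of 32.1% over all protein-coding genes.

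None of the 7 genes on chromosome X had a reproducible promoter peak, which allows a share of up to 41.0% (upper 95% Clopper-Pearson bound), while 33.5% of all protein-coding genes of that chromosome had one. The 7 are eIF2alpha, eIF2Bbeta, eIF2Bepsilon, eIF3g1, eIF4E7, eIF4H1 and eIF5. In the whole lists, 6 of them had a promoter peak in replicate 1, 5 in replicate 2 and 1 in replicate 3, where 58.1%, 57.9% and 52.0% of the protein-coding genes on X had one. Among the strongest peaks the counts were 1, 2 and 0 of 7 in replicates 1, 2 and 3, where 35.2%, 33.3% and 32.4% of the protein-coding genes on X had one. The X-linked peaks of replicates 1 and 2 were thus mostly weak ones, eIF2Bbeta alone had one in replicate 3, and eIF4E7 had none in any replicate.

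Of the 19 reproducible promoter peaks, 8 lay within 500 bp of a start of another gene, and in 4 of them (eIF4EHP, eIF6, eIF1 and eIF3a) that other start was nearer than the factor's own. For eIF3a the neighbour was CG1074, at 12 bp against 58 bp. Shared peaks were not counted in this way for other genes, so the 8 and the 4 have no background beside them. Starts on the other strand within 500 bp were present at 21 of the 52 genes (40.4%), against 30.6% of other protein-coding genes. With such a start, 9 of 21 translation factors (42.9%) and 54.8% of other genes had a reproducible promoter peak. Without one, the counts were 10 of 31 (32.3%) and 22.1%. In the replicates' strongest peaks, the factors with such a start were at 61.9%, 52.4% and 52.4% against 58.1%, 57.1% and 53.6% of other genes, so the direction differed between replicates. The factors without one were above other genes in every replicate, at 45.2%, 48.4% and 35.5% against 23.6%, 22.7% and 20.6%. The intervals of the counts from the reproducible list, 21.8 to 66.0% and 16.7 to 51.4%, each included the share of the other genes in the same class.

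In 18 of the 19 genes the point source of the highest reproducible promoter peak lay upstream of the nearest start (94.7%, against 85.8% for other genes). The median distance was -58 bp, against -128 bp for other genes, where values below 0 are upstream. eIF3h was the exception. The nearest start can be an alternative start inside the gene, as at eIF4A, eEF1alpha1, eIF2A, eIF5B and eEF2. At these genes the point source lay downstream of the outermost start, so it was upstream of an internal start only. The difference in the upstream share did not hold in the replicates' own strongest peaks, where it was -2.19 points ± 3.60 (SD, n = 3) and only replicate 2 had the same sign. The shorter distance did hold, with medians of -29, -46 and -60 bp in replicates 1, 2 and 3 against -118, -117 and -145 bp. The median signal of the 19 genes was 698.3 against 536.7 for other genes with a promoter peak, a ratio of 1.30, but the ratio was 1.19, 0.981 and 0.966 in the replicates (1.05 ± 0.124), so the replicates lay on both sides of equality.

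**Figure D3:**
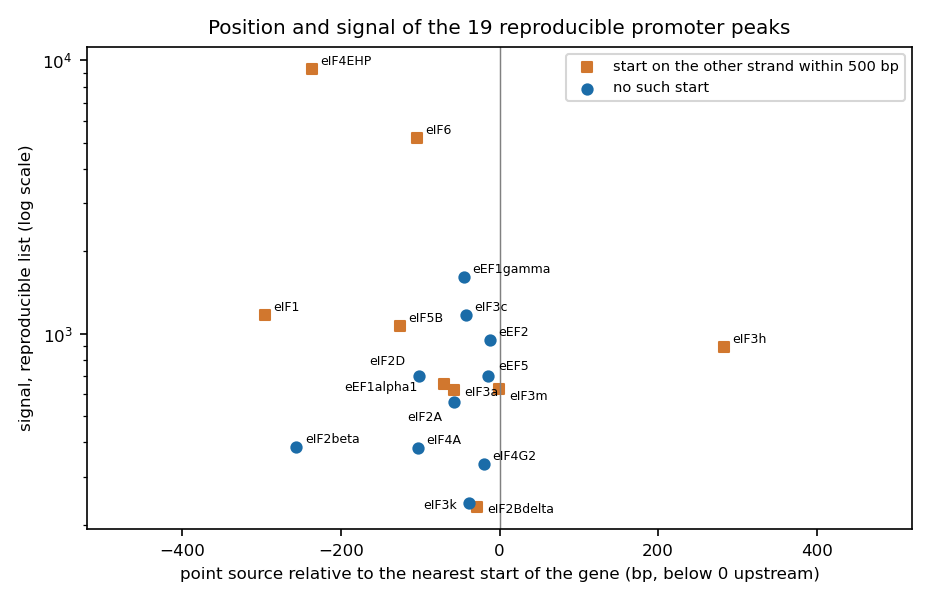
Each point is 1 of the 19 reproducible promoter peaks; the horizontal axis gives the distance in bp of its point source from the nearest start of the gene (below 0 upstream), the vertical log axis its signal, and squares mark genes with a start on the other strand within 500 bp. All but eIF3h (283 bp downstream) lie upstream of that nearest start, which can be an internal one, and the 2 highest, eIF4EHP and eIF6, have a start on the other strand nearby.

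The DNA under the peaks of the translation factors was poorer in A+T than that of other genes. In 101 bp windows at the point source the mean A+T content was 57.5% for the 19 genes and 65.7% for 3291 other promoter peaks, a difference of -8.18 percentage points. Every replicate gave the same direction in its strongest peaks, with -6.84, -5.90 and -7.10 points (-6.61 ± 0.635, SD, n = 3). The windows were not matched for distance to a start, which was shorter for the translation factors (median -58 bp against -128 bp). Most of the 19 windows also reached into annotated exons, and this was not counted for other genes. Whether the A+T difference goes with window position was not tested. The 19 windows ranged from 40.6% in eIF4A to 83.2% in eIF4EHP, with a median of 54.5%. The strongest peak was therefore also the window that departed most from the rest of the set, as the run of A and T in its printed sequence shows.

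The DRE, TATCGATA, is the binding site of DREF, a factor known at promoters of housekeeping and replication genes, and CGATA, which every DRE contains, is the core word of the insulator protein BEAF-32. On either strand of these windows, 4 of 19 (21.1%) held a DRE, namely eEF1gamma, eIF1, eIF2A and eIF3a, and 9 of 19 (47.4%) held CGATA. Among the windows of other genes the shares were 3.80% and 22.4%. Of the windows with a DRE, that of eIF1 lay nearer to a start of RpL28 (85 bp against 296 bp). That of eIF3a lay nearer to a start of CG1074 (12 bp against 58 bp). These windows cannot be assigned to the factor gene alone. The same holds for the CGATA windows of eIF2Bdelta and eIF4G2. Their point sources lay equally near to a start of roh (29 bp) and of CG33111 (20 bp). With 25 bp on each side of the point source the shares were 10.5% and 21.1% for the translation factors, against 1.64% and 12.5%. A run of 6 A, AAAAAA, was in 2 windows (10.5%) against 25.01%, TATAAA in 3 (15.8%) against 22.9%, and GAGAG in 2 (10.5%) against 8.63%. GGTCACACT (Motif 1), the E-boxes CACGTG and CAGCTG, and the Zelda word CAGGTA were in 0 of 19 windows, and in 0.790% to 4.47% of those of other genes, where a count of 0 in 19 shows little. A match is a word in the window and does not show that a factor was bound there.

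**Figure D4:**
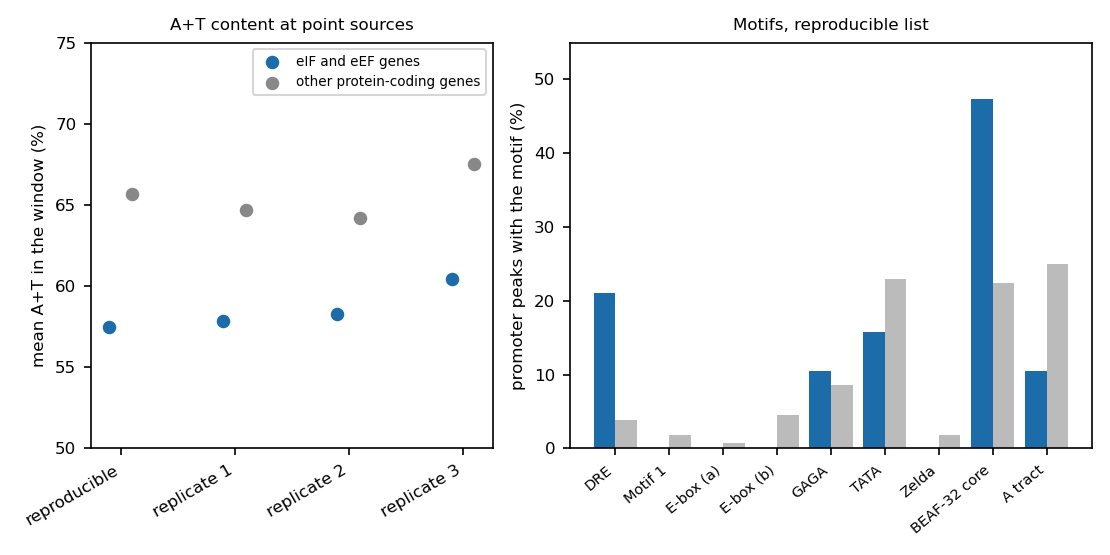
The left panel gives the mean A+T content in percent in 101 bp windows at promoter point sources, for the translation factors and other protein-coding genes, in the reproducible list and in each replicate's strongest peaks (the axis starts at 50%). The right panel gives the share of reproducible promoter peaks whose window holds each motif, blue for the 19 translation factors and grey for 3291 others, with E-box (a) for CACGTG, (b) for CAGCTG and BEAF-32 core for CGATA. The translation factors lie lower in A+T in all 4 lists, and 47.4% hold CGATA against 22.4%.

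Many translation genes of the fly begin transcription at the TCT initiator, a polypyrimidine start in place of the usual initiator. The word was searched on the strand of the gene as TCTTT or CCTTT with its C before TTT within 5 bases of an annotated start. It was present at 6 of the 52 genes (11.5%), eEF2, eEF5, eIF3f1, eIF3i, eIF3m and eIF4A, against 3.28% of other protein-coding genes and 61.4% of cytosolic ribosomal protein genes. At the most upstream start alone it was present at 3 of the 52 genes (5.77%), against 2.17% and 33.0%. Of the 6 factors with the word at any start, 4 had a reproducible promoter peak, as did 15 of the 46 without it (32.6%). Among other protein-coding genes the shares were 45.8% with the word and 31.6% without, and among ribosomal protein genes 87.0% and 70.6%. A peak was counted at any start of a gene, so it need not lie at the start with the word. In eIF4A the word was at the start at position 5981764. The eIF4A point source, at position 5982491, lay 103 bp upstream of another start and beyond 500 bp from the one with the word. Examples from genes with a reproducible promoter peak (eEF2 and eIF4A) and without (eIF3i and eIF3f1) follow. The initiator word is in capitals, read from the RefSeq dm6 genome.
eEF2 (chr2L:21682099-21682123, minus strand): agcgcctcgcTCTTTcctgtcgaaa
eIF4A (chr2L:5981757-5981781, plus strand): agatggagccTCTTTtgcttggttt
eIF3i (chr2L:4967757-4967781, minus strand): gtcacactgcTCTTTtggcgtgtag
eIF3f1 (chr3R:4714165-4714189, minus strand): atcgataggcCCTTTtcttgcatcc

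Genes that work with the factors had a higher share with promoter peaks than the factors, a difference that was not tested. Of 20 regulators and partners, 15 (75%, interval 50.9 to 91.3) had a reproducible promoter peak, where the background was 32.1%. A promoter peak was in all 3 replicate lists for 17 of them, where the background was 39.5%. The highest signals were 1420.5 for eRF3 and 1053 for eRF1, the release factors, 1150.2 for pAbp, which binds the poly(A) tail, and 923.6 for pix, the ribosome recycling factor. The pAbp point source lay 495 bp downstream of its nearest start, close to the 500 bp limit. The share in the replicates' strongest peaks was 70% ± 5 (SD, n = 3). Cytosolic ribosomal protein genes reached 71 of 88 (80.7%), mitochondrial ribosomal protein genes 46 of 73 (63.0%) and aminoacyl-tRNA synthetase genes 16 of 33 (48.5%). Of 9 mitochondrial initiation, elongation and release factors, 3 had a reproducible promoter peak (33.3%), namely mRF1, waw and mEFG1, with signals of 314.6, 256.9 and 246.2. A promoter peak was in all 3 whole replicate lists for 6 of these 9 (66.7%), where the background was 39.5%. Their share in the replicates' strongest peaks was 29.6% ± 17.0 (SD, n = 3), against 32.7% of all protein-coding genes. In the replicates' strongest peaks the synthetase genes stood at 48.5%, 57.6% and 48.5% and the initiation and elongation factors at 51.9%, 50% and 42.3%, so the order of these sets was not the same in every replicate. Both ribosomal protein sets were above the factors in all 3 replicates.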

How the data were processed

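ChIP-seq peak lists of 1 group of 3 biological replicates on dm6 were analysed. Per the labels, the deposited lists are narrowPeak files with the authors' signal per peak, a deposited −log10 q-value and a point source. Which aligner, caller and IDR threshold were used is not given in the sources used here. All 9624 reproducible peaks lie in the pooled list at identical point sources and share 1 q-value, so the list has no spread of its own. The spread over replicates comes from each replicate's 9624 strongest peaks. Replicate labels do not say whether embryos were collected separately.

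Starts came from Ensembl release 115 on chromosomes 2, 3, 4 and X, on the same build, without transposable elements and pseudogenes. The highest promoter peak within 500 bp of any start stands for a gene, and a peak can count for several genes. Positions are 1-based. Every member is named or counted. The rule gave replicate values to the 10 members with the highest reproducible peak, to those with a reproducible peak that a replicate list lacked, and to those with promoter peaks in at least 2 replicate lists but no reproducible one. Neighbours were named where they share such a peak, and of regulators and of mitochondrial factors up to 4. Symbols not in the annotation were dropped (eIF4AIII, eIF5C, Tor, GCN1, mEFG2; eIF5A is listed as eEF5). Initiation factors that the annotation lists under other symbols, such as kra, were not added. Members, lists, motifs and comparisons were chosen with earlier results of these data known. No test over genes was made. Intervals are 95% Clopper-Pearson and cover counting error only. Alternatives changed the promoter distance, start choice, list, window and replicates used; without a replicate, peaks of the remaining lists matched within 100 bp were ranked by mean signal over the list median, and the 9624 highest were kept. Work was done in Python 3.11.15 with pandas 2.3.3, numpy 2.4.6, scipy 1.17.1 and matplotlib 3.10.9, and the functions were tested on simulated data.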

Additional observations from a re-analysis of the deposited data

How the results depend on the processing

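Of 71 alternative values, 45 moved by less than the SD over replicates (for motifs, stayed within the 95% interval of the main share), 21 moved further and 5 changed direction; the causes were not tested. The share of translation factors with a promoter peak minus that of other genes, 4.46 points, was 8.37 within 250 bp, 7.87 in the stronger part of the list, 10.2 for genes with no start opposite and 7.50 to 16.7 without 1 replicate, the highest without replicate 3. Its mean over replicates, 15.4, was 19.8 within 250 bp and 14.2 to 17.3 without 1 replicate. The signal ratio, 1.30, was 0.989 in the stronger part of the list, 1.17 for peaks matched in all 3 replicates and 1.10 to 1.29 without 1 replicate. Single genes minus copies, 34.8 points, gave 27.5 with the nearest start only, 26.6 with no start opposite and 37.3 to 40.4 without 1 replicate. The A+T difference, -8.18 points, was -9.17 in the stronger part, -11.2 with 25 bp and -5.22 with 100 bp on each side, and -8.03 to -6.49 without 1 replicate. The upstream share difference, 8.94 points, was 13.9 within 1000 bp, 3.74 in the stronger part and -10.95 to 2.01 without 1 replicate, with -1.12 without replicate 1 and -10.95 without replicate 2. For motifs, CGATA exceeded other genes by 8.59 points with 25 bp on each side, AAAAAA differed by -2.23 with 100 bp and -13.4 with 25 bp, and with 100 bp CACGTG became 3.11 and GAGAG -8.98. No paired analysis was possible because there was 1 group. Depth is unknown, so the absence of a peak does not show the absence of binding.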

Other observations

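Peaks just outside the 500 bp limit were found at several factor genes counted as lacking a promoter peak in the reproducible list. The nearest pooled peak lay 726 bp from a start of eIF2gamma, and the nearest reproducible peaks lay 609 bp from eIF3b and 680 bp from eIF2Bbeta. Within 1000 bp, 21 of the 52 genes (40.4%) had a reproducible peak, against 36.5% of other genes. By contrast, the pooled peak nearest to eIF4B, on chromosome 3L, lay 3320793 bp away, although replicate 3 had a peak 91 bp from a start of that gene.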
